A study of Mus musculus with 6 samples.

Results

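Neuregulins are growth factors of the epidermal growth factor family, and the ErbB proteins are the family of receptor tyrosine kinases that includes their receptors. The 8 genes described here are the 4 neuregulin ligand genes (Nrg1, Nrg2, Nrg3 and Nrg4) and the 4 receptor genes (Egfr, Erbb2, Erbb3 and Erbb4). They were followed through the authors' deposited table of regions whose DNA methylation differed between 2 groups of mouse embryos. Every region listed under 1 of these gene names was taken, in any cytosine context, and repeated entries were collapsed by position and context. This gave 21 distinct regions of 9707 in the table, carried by 6 of the 8 genes.

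The 6 samples were single embryos of C57BL/6 background, taken at embryonic day 4.5 and sequenced one by one after bisulfite conversion, which leaves methylated cytosines to be read as cytosine and turns the others into thymine. As fertilised eggs they had been microinjected with sperm small RNAs at 2 ng/µl, then cultured first in M16 and later in KSOM medium, and were collected about 108 h after injection. The 3 embryos of the normal group had received small RNAs of normal males, and the 3 of the depressed group those of males made depressed by stress. Every embryo was thus injected, and the labels state neither the embryos' sex nor how many males gave RNA. The comparison asks whether small RNAs of depressed males leave the embryo's methylation different from that left by small RNAs of normal males.

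For each region the authors' deposited table gives 1 mean level per group, with no value per embryo, so no level below has a spread or a replicate number, and the depth behind it is unknown. The regions were selected on the authors' own contrast of the group means and region statistic, since only regions called different are listed. Their levels are therefore descriptions and carry no test. Whether any difference exceeds the spread between embryos was not tested. Pairs of levels below give the depressed group first and the normal group after "against".

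Neuregulins are made as larger, mostly membrane-bound precursors that are cut to release a domain resembling epidermal growth factor. This domain binds Erbb3 or Erbb4, and the receptors then pair, often with Erbb2, which has no known ligand of its own, while Erbb3 has little kinase activity of its own. Signalling runs through the Ras-MAPK and PI3K-AKT routes. In the nervous system the pathway is known for Schwann cell growth and myelination, for synapses and for interneurons, and in the blastocyst Egfr and Erbb4 are known as receptors for the embryo's meeting with the uterus.

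Among the 21 regions, 19 were CHH regions higher in the depressed group (H is A, C or T). Another was a CHH region lower in the depressed group and the last a CHG region that was also lower. CG regions, the context in which mammals methylate most, numbered 0. The whole list of 9707 holds 867 lower and 13 higher CG regions. Across all listed regions, 79.6% of CHH regions were higher and 91.0% of CHG regions were lower in the depressed group, so 20 of the 21 regions went the way of most regions in their context, the lower CHH region being the exception. Among 21887 protein-coding genes, 18.0% had any listed region, 9.11% had a CHH region higher in the depressed group and 5.38% a CHH region lower. A lower CHG region was listed for 6.40% and a lower CG region for 2.54%, so 0 among 8 genes is no marked absence. These shares do not allow for gene length.

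In the 19 higher regions the authors' mean ran from 2.46 to 14.9% in the depressed group, with a median of 4.71%. In the normal group it ran from 0.193 to 2.82%, with a median of 0.689%. In 1 of the 19 regions, the intronic one of Nrg3, the depressed level lay under the highest normal level of the 19. The median difference was 4.30 percentage points, beside 3.81 over all 5528 CHH regions listed as higher. Those 5528 regions had medians of 4.76% against 0.769%. The regions at the neuregulin and receptor genes were thus of ordinary size for this list, and 9 of 19 lay above the list's median level in the depressed group.

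**Figure D1:**
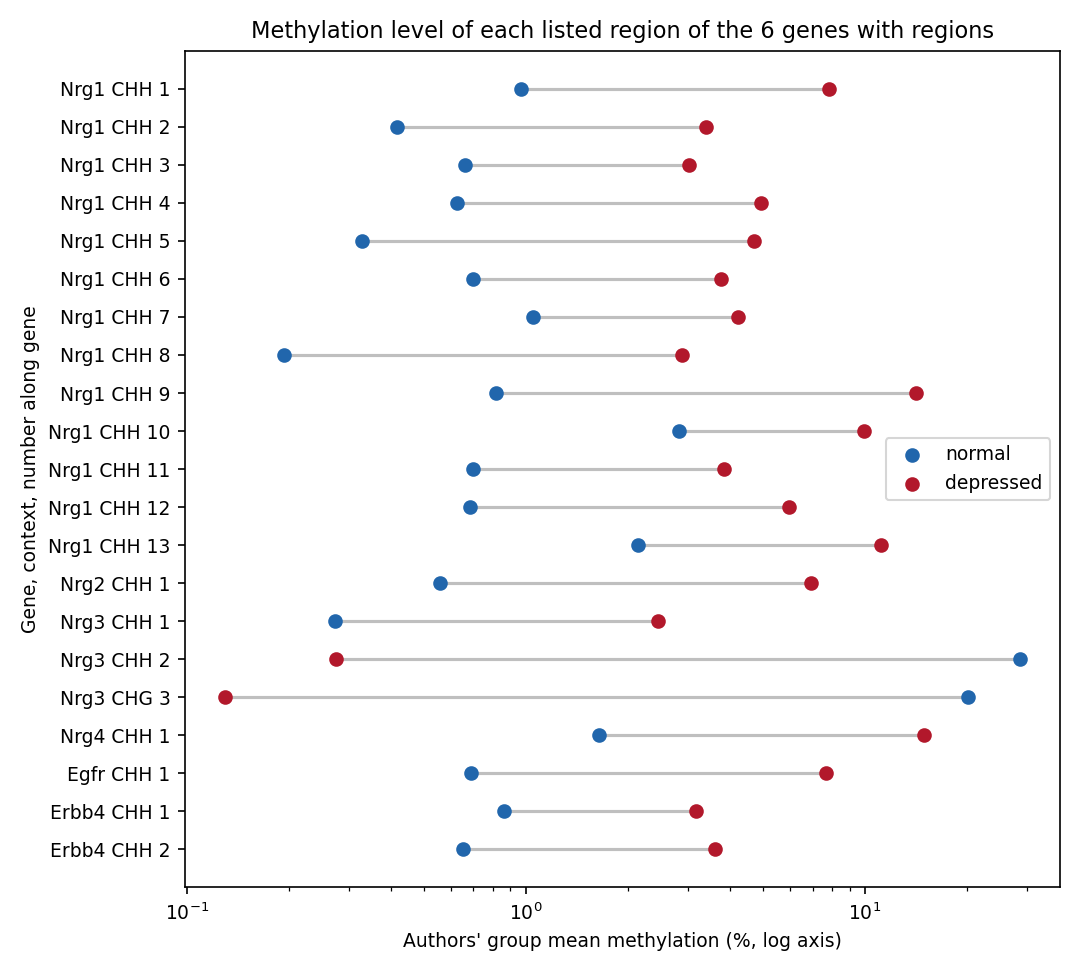
Authors' mean methylation of each of the 21 regions in the normal (blue) and depressed (red) group, in percent on a log axis, 1 row per region with its gene, context and number along the gene from the lower coordinate. Depressed lies to the right of normal in 19 rows, and the 2 rows that run the other way are the CHH and CHG regions of Nrg3 at 0.275 against 28.6% and 0.130 against 20.1%.

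Nrg1, whose protein signals from axons to Schwann cells and takes part in heart and synapse formation, carried 13 of the 21 regions. All 13 were intronic CHH regions that were higher in the depressed group. No other gene of the 21887 had as many regions of this kind, and the next, Ctnna2, had 11. Nrg1 spans 1084 kb (mm10, chromosome 8, 31807452 to 32891609), and long genes can hold more regions. Of the 59 protein-coding genes of at least 1 Mb, 88.1% had such a region, with a median of 4 regions a gene. Per Mb, Nrg1 had 12.0 regions against a median of 3.08 in these 59 genes and 2.72 over all protein-coding genes together. It ranked 1 of 59 by density as well as by count. Its first place by density holds only among these long genes. Some shorter genes were denser, among them Fgfr2 (9 regions, 86.2 per Mb) and Tshz2 (8 regions, 18.2 per Mb). The genes were chosen with results of this table known, so the rank of Nrg1 is a description.

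Along Nrg1 the regions were unevenly spaced. The first lay 96.3 kb from the lower end of the span and the last 44.6 kb from the upper end. The 12 gaps between neighbours ran from 6.06 to 273 kb with a median of 50.7 kb. Over all of chromosome 8, stretches between genes and Nrg1 itself included, the median between neighbouring higher CHH regions was 216 kb. Short gaps follow from the count of 13 in the gene and are no separate result. Of the gaps, 4 were under 15 kb and 4 were over 100 kb. The third to the tenth region, 8 of the 13, lay within 207 kb (32185836 to 32393085), and the 4 from the third to the sixth lay within 61.7 kb. These stretches were picked because windows of 250 and 100 kb placed there held the most regions of the gene. Whether the spacing differs from random placement was not tested. Outside the gene, the nearest listed regions were 49.2 kb below it and 123 kb above it, both higher CHH regions.

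**Figure D2:**
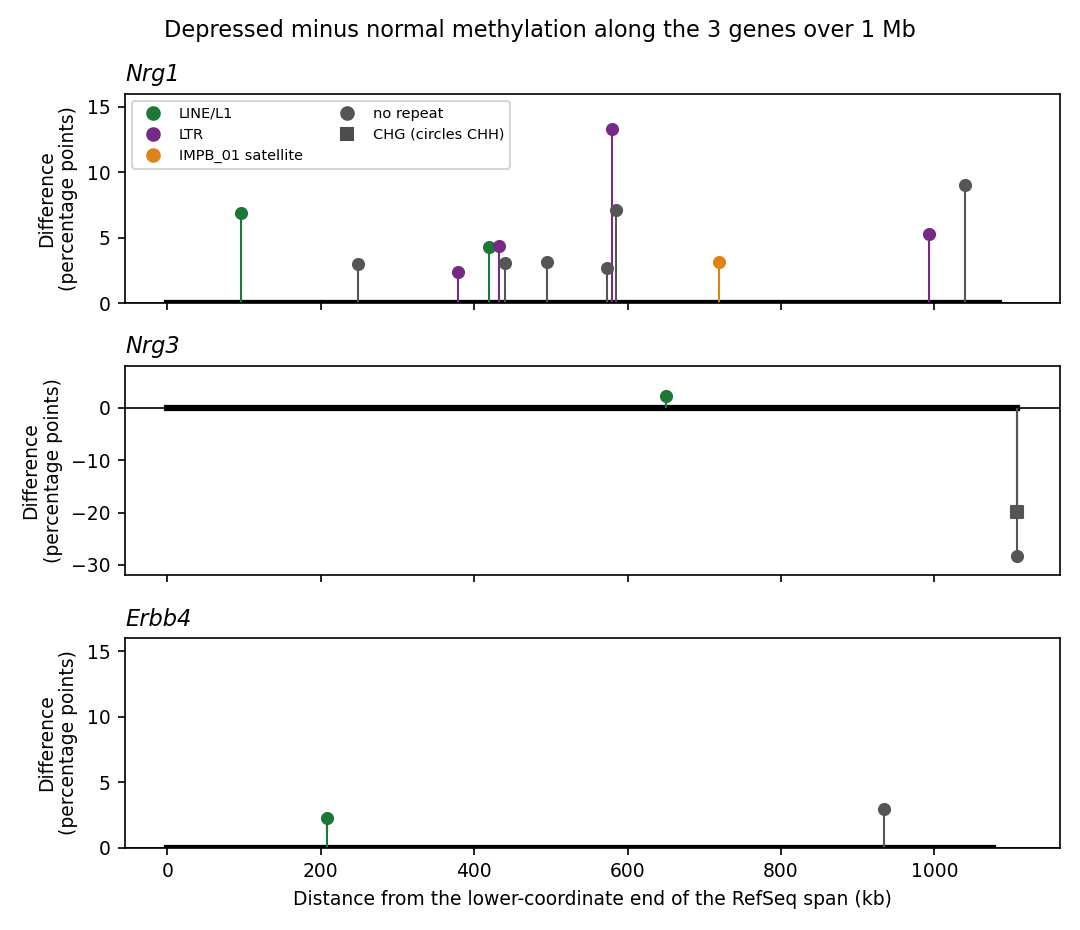
Difference in methylation (depressed minus normal, percentage points) of each region along the spans of Nrg1, Nrg3 and Erbb4, against the distance in kb from the lower-coordinate end; colours give the repeat class touched, circles CHH and the square CHG. Nrg1 has 13 regions, 8 of them within 207 kb, a stretch picked as the densest. Nrg3 and Erbb4, of nearly the same span, have 3 and 2.

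The largest difference in Nrg1 was at its ninth region (32386648 to 32386907), with 14.1% against 0.813%. It ranked 264 of 5528 by difference. This region touches a copy of RLTR31D_MM, a long terminal repeat of an endogenous retrovirus. A second RLTR31D_MM copy, at the third region (32185836 to 32186068), went with 3.02% against 0.659%, which ranked 4916 of 5528. Copies of 1 repeat family in 1 gene thus stood near opposite ends of the list. The third region was also listed at the promoter of an Ensembl gene to which the table gives no name.

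On either side of the ninth region lay regions with no repeat entry. The eighth (32380236 to 32380365), 6.28 kb away, stood at 2.89% against 0.193%, and the tenth (32392965 to 32393085), 6.06 kb away, at 9.92% and 2.82%. The eighth thus had the lowest level of the gene in both groups, and the tenth the highest level in the normal group. Regions a few kb apart differed severalfold in level. The thirteenth (32846822 to 32847038), again without a repeat, was at 11.2% against 2.14%. The tenth and thirteenth were the 2 Nrg1 regions with the highest normal levels.

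The seventh region (32302557 to 32302885) had the strongest statistic of the 21, a score of the authors that adds up along a region, at 1104. It was also the longest, with 177 CHH cytosines in 329 bp, and its level was 4.21% against 1.05%. Its difference ranked 3551 of 5528. The second region (32055745 to 32055941) stood at 3.40% against 0.416%, and the sixth (32247358 to 32247535) at 3.75% against 0.697%. None of these 3 touched a listed repeat.

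The other 5 regions of Nrg1 each touched a repeat of another family. Here and below, a region said to be in a repeat overlaps a listed copy, which can be shorter than the region, and its level is that of the whole region. The first (31903726 to 31903855), in an L1MB2 copy of the LINE-1 class, stood at 7.84% against 0.965%. The fourth (32226969 to 32227158), which touches an Lx8 copy of the same class, was at 4.93% against 0.627%. That copy covers only positions 5478 to 5512 of the repeat's reference sequence, while the region is 190 bp long. The fifth (32240179 to 32240314), in a retroviral MTC repeat, was at 4.71% against 0.329%. The eleventh (32527080 to 32527249), in a copy of the satellite-class repeat IMPB_01, was at 3.84% against 0.699%. The twelfth (32800308 to 32800448), in a retroviral RLTR51A_Mm repeat, was at 5.97% against 0.681%. Over the gene, the 7 regions with a repeat had depressed levels of 3.02 to 14.1% (median 4.93%) and the 6 without one 2.89 to 11.2% (median 3.98%), ranges that overlap.

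Nrg2, a neuregulin gene of brain and cerebellum, carried 1 region. This intronic CHH region (chromosome 18, 36156158 to 36156322), in a retroviral MLT1D repeat, stood at 6.95% against 0.557%. Just outside the gene, 12.9 kb below its span, lay a CHH region listed under an intron of Psd2, which went the other way with 0.381% against 31.6%.

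Nrg3, a ligand of Erbb4 that is expressed mainly in the nervous system, was the 1 gene with regions in both directions. Its intronic CHH region (chromosome 14, 39015712 to 39015845), in an Lx5c copy of LINE-1, was higher, at 2.46% against 0.273%. Its lower CHH region (39472513 to 39472697) stood at 0.275% against 28.6%. Its CHG region (39472556 to 39472698) stood at 0.130% against 20.1%. The lower CHH region and the CHG region share 142 bp and are 1 place in the gene seen in both contexts. They lie 457 kb from the intronic region.

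The lower pair of Nrg3 was also the only place among the 21 regions listed in an exon and in a CpG island, and it was listed at the promoter too. The island runs from 39472116 to 39474133 in the table. The CHH region begins 391 bp and ends 575 bp downstream of the transcription start from which RefSeq's promoter window for Nrg3 is drawn. That window of 300 bases (GRCm38, chromosome 14, 39473039 to 39473338, minus strand) holds 36 CpGs, against a median of 7 over 32851 such windows, and 6.23% of them hold as many. The windows at hand for Erbb2, Erbb4, Egfr and Nrg4 hold 21, 17, 15 and 13 CpGs, and 0 listed regions fall in any of these 5 windows. Across the table, 65.9% of lower CHH regions were in exons and 7.56% in CpG islands, and for lower CHG regions the shares were 83.1 and 11.1%.

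Both CHH regions of Nrg3 lay at the edge of the table. Their absolute statistics were 308 and 310, where the smallest of any listed CHH region was 307. Their ranks were 5514 of 5528 higher and 1398 of 1415 lower regions. The CHG region, with an absolute statistic of 117 against a smallest of 15.3 in its context, ranked 301 of 1715.

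Nrg4, a ligand of Erbb4 released by fat and other tissues, carried 1 intronic CHH region (chromosome 9, 55262912 to 55263183), in a copy of IMPB_01. Its depressed level of 14.9% was the highest of the 19 higher regions, against 1.64% in the normal group, and its difference of 13.3 percentage points ranked 267 of 5528. Only this region and the ninth of Nrg1 differed by 10 percentage points or more among the 19. With a span of 63.4 kb, the single region of Nrg4 amounts to 15.8 per Mb, a density that rests on that region alone.

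Among the receptors, Egfr, the receptor of epidermal growth factor, carried 1 intronic CHH region (chromosome 11, 16831417 to 16831550), again in a copy of IMPB_01. Its level was 7.69% against 0.689%. The region was also listed at the promoter of a second Ensembl gene without a name in the table. The span of Egfr is 161.7 kb and the next listed region lies 24.1 kb above it.

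Erbb4, the neuregulin receptor of neurons, heart and breast, carried 2 intronic CHH regions over a span of 1077 kb (chromosome 1, 68031884 to 69108576). The first (68240334 to 68240522), in an Lx5c copy, stood at 3.17% against 0.860%. The other (68966525 to 68966694), 726 kb further and with no listed repeat, was at 3.62% against 0.650%. Erbb4 thus had 1.86 higher CHH regions per Mb and Nrg3 0.902, ranking 41 and 49 of the 59 genes of at least 1 Mb. Nrg1, Nrg3 and Erbb4 have nearly equal spans, and their counts of higher CHH regions were 13, 1 and 2.

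**Figure D3:**
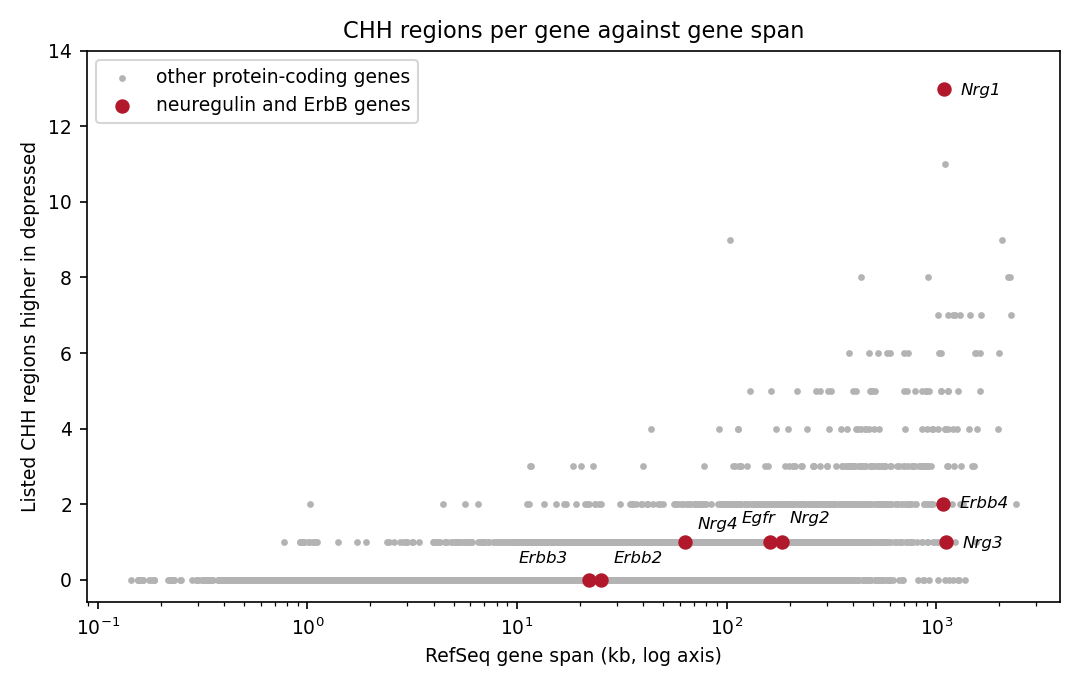
Number of listed CHH regions higher in the depressed group in each of 21887 protein-coding genes against RefSeq span in kb (log axis), with the 8 neuregulin and ErbB genes in red. Nrg1 stands at 13, above Ctnna2 at 11, while Erbb4 at 2 and Nrg3 at 1 sit low among genes of their length.

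Erbb2 and Erbb3, the partner receptors that work mainly in pairs, had 0 listed regions. They are the shortest of the 8 genes, with spans of 25.2 kb (chromosome 11, 98412484 to 98437716) and 22.1 kb (chromosome 10, 128567523 to 128589635). The nearest listed region to Erbb3 lay 17.1 kb below it at the promoter of the ribosomal protein gene Rpl41 and was a lower CHH region, at 0.654% against 11.6%. For Erbb2 the nearest lay 48.4 kb above it. The table lists regions that were called, so 0 regions does not show that methylation at these 2 genes was alike in the groups.

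Repeats were listed for 12 of the 19 higher regions (63.2%), beside 62.6% of all higher CHH regions and 39.3% of those in an intron. The 12 regions touch 1 repeat copy each, in LTR elements for 5, LINE-1 for 4 and IMPB_01 for 3. Over all higher CHH regions, 25.6% touched an LTR element, 12.9% LINE-1 and 13.7% IMPB_01, and over the 3133 in an intron the shares were 15.6, 6.77 and 8.08%. The IMPB_01 copies of Nrg4, Egfr and Nrg1 cover positions 1 to 285, 164 to 288 and 284 to 399 of the repeat's reference sequence. Their depressed levels of 14.9, 7.69 and 3.84% compare with a median of 5.19% over the 759 higher regions in IMPB_01. The RLTR31D_MM copies of Nrg1 cover positions 98 to 176 and 99 to 227, and the 355 higher regions in that repeat had a median of 4.96%. Both Lx5c regions, in Nrg3 and Erbb4, had low depressed levels (2.46 and 3.17%), beside a median of 4.59% over 45 such regions.

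All 19 higher regions were intronic, as were 95.2% of the 2866 higher CHH regions listed with a gene name, from which the 19 could come. They were 121 to 329 bp long, with a median of 170 bp against 186 bp in the table. They had 36.0 to 62.4 CHH cytosines per 100 bp with a median of 53.8, against 50.0 for all higher CHH regions and 51.1 for those in an intron. Without Nrg1 the median was 45.3. In 13 of 19 the density lay above the table's median. The lower CHH region of Nrg3 had 18.9 per 100 bp, close to the median of 21.2 of the lower CHH regions. The regions with the highest depressed levels, in Nrg4 and the ninth of Nrg1, were the 2 least dense in cytosines of the 19, with 36.0 and 38.8 per 100 bp.

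**Figure D4:**
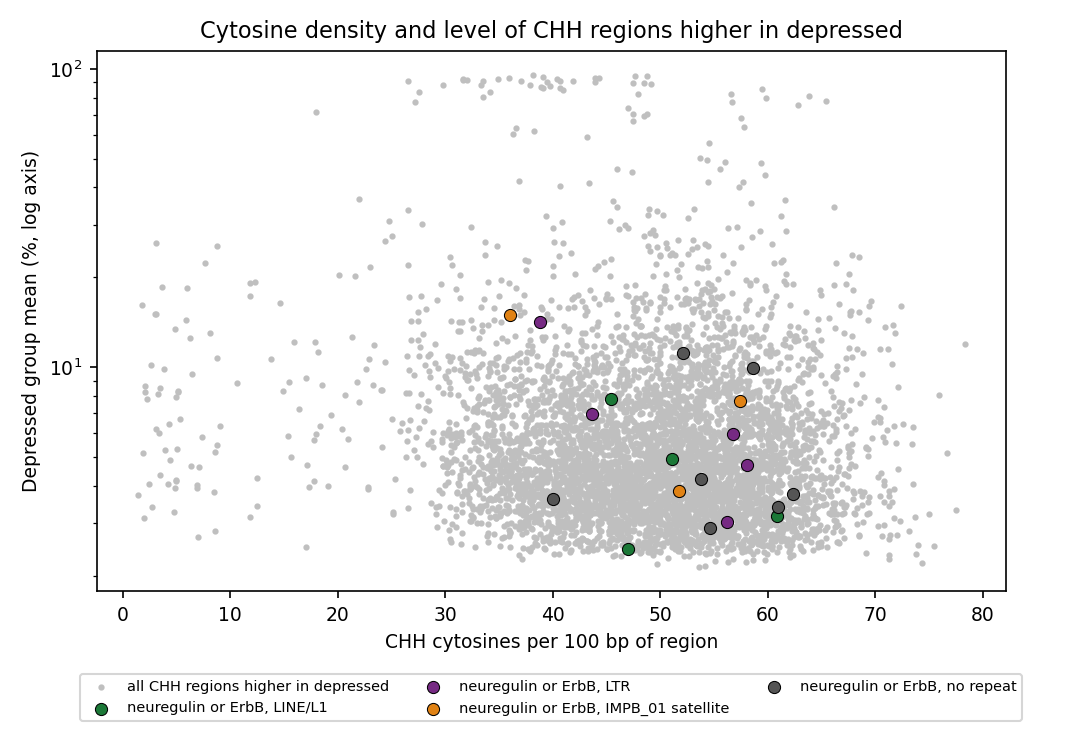
Depressed group mean (percent, log axis) against CHH cytosines per 100 bp for all 5528 higher CHH regions (grey) and the 19 at neuregulin and ErbB genes, coloured by repeat class. The 19 lie inside the cloud, between 36.0 and 62.4 cytosines per 100 bp and 2.46 and 14.9%.

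The genes most like Nrg1 in their 6 counts of regions (3 contexts, higher and lower, summed absolute difference) were Ctnna2, an alpha-catenin gene of neurons with 11 higher CHH regions and no other (distance 2), and Wwox and Tshz2 with 8 each (distance 5). For Nrg3, 40 genes had the same 6 counts. Those nearest to it in span included Fat3 (592 kb) and Lrrc7 (495 kb), both much shorter than Nrg3 (1108 kb).

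Other genes of the pathway, a list of 105 genes in 7 groups, had regions of every kind except higher CG. Of these genes 38 had any region (36.2%, beside 18.0% of all protein-coding genes). By kind, 11 had a higher CHH region (10.5%), close to the 9.11% of all genes. A lower CHH region was listed for 17 (16.2%, beside 5.38% of all genes) and a lower CHG region for 21 (20.0%, beside 6.40%). Another 3 counts of genes were higher CHG, 3 (2.86%, beside 0.758%), lower CG, 4 (3.81%, beside 2.54%), and higher CG, 0. None of the other 7 ErbB ligand genes, Egf, Tgfa, Hbegf, Btc, Areg, Ereg and Epgn, had a region. The group called Ras-MAPK here was drawn widely and also holds calcium-dependent kinase genes (such as Camk2a and Camk2b) and protein kinase C genes (Prkca and Prkcb). In it 12 of 29 genes had a lower CHG region (41.4%), beside 6.40% of all genes. It is named because this share was the highest of the 7 groups. The list was chosen with earlier results of these data known. It holds many genes known from neurons and was not adjusted for gene length, so these shares are descriptions of the list only.

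The pathway's lower regions are described by the 3 genes with the strongest statistic in each context. Of these 9 regions, 6 lay in a 3′ UTR, beside 6.69% of all lower CG, 47.7% of lower CHG and 43.0% of lower CHH regions. The 9 were picked by statistic from the pathway's 4 lower CG, 27 lower CHG and 21 lower CHH regions. How many of the others lay in a 3′ UTR was not counted, so 6 of 9 is no share for the pathway. Among the 6, Camk2a, a synaptic calcium-dependent kinase, had a CHH region at 0.369% against 43.1% and a CHG region at 0.511% against 14.0%. Prkca, a protein kinase C gene, had a CHG region at 0.0742% against 27.3%. Gsk3b, a kinase inhibited by AKT, had a CG region at 13.1% against 58.3%. Cdkn1a, a cell cycle inhibitor, had a lower CHH region at 0.748% against 19.3%.

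Rnf41, the ubiquitin ligase that marks Erbb3 for degradation, had a CG region with 5 CpGs in 2312 bp at 8.69% against 74.5%, and the adaptor gene Shc4 an intronic one at 14.6% against 75.7%. Higher CHG regions lay in the adaptor gene Gab2 at its promoter and 5′ UTR (16.7% against 0.779%), in the kinase gene Mtor (22.3% against 0.104%) and in Errfi1, an inhibitor of ErbB kinases, at its 3′ UTR (34.8% against 0.0784%). Intronic higher CHH regions stood at 3.34% against 0.536% in Prkcb and 5.64% against 2.29% in the muscle receptor kinase gene Musk. Prkcb also carried a lower CHH region at 0.184% against 49.2% in an intron.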

How the data were processed

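Single-embryo bisulfite libraries were made from 3 normal and 3 depressed embryos. The submitters' processing notes name Trim Galore 0.3.3, Bismark, SAMtools and the build mm10. They name no region caller, threshold, coverage filter or way of combining embryos.

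The deposited table gives each group's mean methylation as a fraction, the difference between groups and a score per region, per the file headers. Fractions were multiplied to percent here. The 18732 entries were collapsed to 9707 regions, and 23 entries under the 8 gene names to 21. Spans came from the RefSeq table for GRCm38 (mm10), which matched 3940 of 4040 gene names in the table to a protein-coding gene by symbol or unique synonym. A region listed for overlapping genes counts for each. Promoter windows were RefSeq's. No sequence of the regions was used here.

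No test was made, since group means without values per embryo allow none. Pathway genes named were the 3 with the largest absolute statistic per context and direction, and genes alike were the 3 nearest for members with 3 or more regions. Some genes that these rules pick are not reported here. The members and lists were chosen with earlier results of these data known. The steps were tested on simulated data (Python 3.11.15, pandas 2.3.3, NumPy 2.4.6). Alternatives set minima for the difference, cytosine number or statistic, assigned regions by RefSeq span, merged contexts or left out Nrg1.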

Additional observations from a re-analysis of the deposited data

How the results depend on the processing

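Counts moved by over 1.5 times where the list was narrowed. Of the 20 CHH regions, 3 differed by at least 10 percentage points (2 higher and 1 lower), 2 of them with a repeat. With signs kept, so that the lower region counts as negative, their median difference was 13.3 percentage points, against 3.73 over the 20. Regions of this size, CHG included, lay in 3 of the 6 genes. With cytosine numbers at or above the median of the context, 10 CHH regions were left, 10 higher and 0 lower, 6 with a repeat. With statistics at or above that median, 9 CHH regions were left, 9 higher and 0 lower, 5 with a repeat. Regions passing this minimum, the CHG region of Nrg3 included, lay in 3 genes. Without Nrg1 there were 7 CHH regions, 6 of them higher, and 5 with a repeat. Merging overlapping contexts gave 20 places from 21 regions. Asking for a midpoint inside the RefSeq span, or a place within 10 kb of it, kept all 21. Embryos could not be left out in turn. No paired analysis was possible because the table holds no values per embryo. Since read depth is unknown, the precision of the levels is too.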
